A study of Homo sapiens with 8 samples.

Results

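The genes described here are 40 genes of mitosis and of the passage from G2 into mitosis, taken by symbol from a table of 62700 rows: mitotic cyclins and kinases, the spindle checkpoint, kinesins, the kinetochore and the machinery of cytokinesis. They were measured by poly-A RNA sequencing in foam cells grown from the THP-1 line, which derives from a human monocytic leukaemia. PMA (50 ng/mL for 72 h) turned the cells into macrophages, and acetylated low-density lipoprotein then loaded them with lipid for 48 h. The 4 DMSO libraries come from foam cells given vehicle (below 0.1% by volume) and the 4 AF libraries from foam cells given 0.5 µM auranofin, a gold compound that inhibits thioredoxin reductase. Both groups had the same PMA and lipoprotein treatment; the sample protocol starts the drug 24 h before the lipoprotein and keeps it on, while the design text of the series puts the drug later than the loading. The comparison asks how auranofin altered mitotic transcripts in foam cells. All cells are of 1 leukaemia line, and THP-1 cells without PMA were not analysed here.

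Mitotic genes are switched on late in the cell cycle. Cyclin B with CDK1 drives entry into mitosis, the spindle checkpoint holds back the anaphase promoting complex until chromosomes are attached, and that complex then destroys securin and cyclin B. In G0 and early G1 the DREAM complex, built on the MuvB core, represses these genes, and in S and G2 the same core joins B-MYB (MYBL2) and FOXM1 to activate them. MuvB reaches the promoters through a short element named CHR (cell cycle genes homology region), often beside CCAAT boxes that bind NF-Y. PMA is known to slow the division of THP-1 cells as they become macrophages. In bulk RNA, fewer cycling cells and less mitotic RNA per cycling cell cannot be told apart.

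The promoters show what these genes share in sequence. In RefSeq (GRCh38.p14), 34 of the 40 genes had a window from 250 bases before to 50 bases after a transcript start, and the windows were searched on both strands for CHR, as TTTGAA or TTCGAA, and for CCAAT. CHR was present in 27 of the 34 genes (79.4%), against 19.5% of all 27305 genes with such a window and 2 of 31 replication genes (6.45%). CCAAT was present in 28 of 34 (82.4%), against 39.7% of all genes and 67.7% of the replication genes, and both elements in 23 (67.6%), against 7.85%. In 22 of the 27 genes with CHR (81.5%) a match began within 50 bases of a start, against 1705 of 5336 among all genes with CHR. The 7 genes without a match were AURKB, CCNA2, CCNB1, CENPE, KIF20A, KIF2C and PTTG1, which says only that these letters are not in these windows.

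Printed here are the promoters of the 3 genes called with auranofin at an adjusted p under 0.05 in edgeR (CCNB1, MKI67, CENPF). Those of 2 that were not called (CCNB2, PLK1) and, for contrast, of the replication gene MCM3 follow. Each is the 150 bases before the RefSeq start, on the gene's strand, 5′ to 3′, with CHR and CCAAT matches of either strand in capitals.
CCNB1 (chr5:69167000-69167149, plus strand): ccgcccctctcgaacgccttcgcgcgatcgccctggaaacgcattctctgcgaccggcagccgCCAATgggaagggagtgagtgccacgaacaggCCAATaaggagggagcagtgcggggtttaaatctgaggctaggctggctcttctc
MKI67 (chr10:128126424-128126573, minus strand): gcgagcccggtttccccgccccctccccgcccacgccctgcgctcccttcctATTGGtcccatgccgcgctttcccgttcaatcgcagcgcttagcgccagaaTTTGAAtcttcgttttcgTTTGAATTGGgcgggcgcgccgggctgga
CENPF (chr1:214603045-214603194, plus strand): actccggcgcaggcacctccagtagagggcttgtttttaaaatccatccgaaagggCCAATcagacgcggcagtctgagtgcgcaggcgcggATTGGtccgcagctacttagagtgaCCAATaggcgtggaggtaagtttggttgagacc
CCNB2 (chr15:59104996-59105145, plus strand): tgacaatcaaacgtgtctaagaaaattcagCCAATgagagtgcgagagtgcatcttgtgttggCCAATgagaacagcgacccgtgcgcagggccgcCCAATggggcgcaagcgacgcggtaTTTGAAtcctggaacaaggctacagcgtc
PLK1 (chr16:23678739-23678888, plus strand): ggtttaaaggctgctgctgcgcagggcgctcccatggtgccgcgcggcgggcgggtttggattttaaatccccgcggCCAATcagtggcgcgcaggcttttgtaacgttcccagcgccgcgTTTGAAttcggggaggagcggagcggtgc
MCM3 (chr6:52284743-52284892, minus strand): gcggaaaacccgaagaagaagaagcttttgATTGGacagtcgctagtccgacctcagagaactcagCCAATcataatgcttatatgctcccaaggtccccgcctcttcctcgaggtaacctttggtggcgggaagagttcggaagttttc
In CCNB2 and PLK1 the CHR began 29 bases before the start, and in MKI67 1 of its 2 copies lay at the same distance, sharing 1 base with a CCAAT match. The CHR of CENPF lay 40 bases after the start and outside the bases shown. CCNB1 had 2 CCAAT matches and neither TTTGAA nor TTCGAA, and other forms of CHR were not searched. MCM3 had matches to CCAAT alone.

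**Figure D1:**
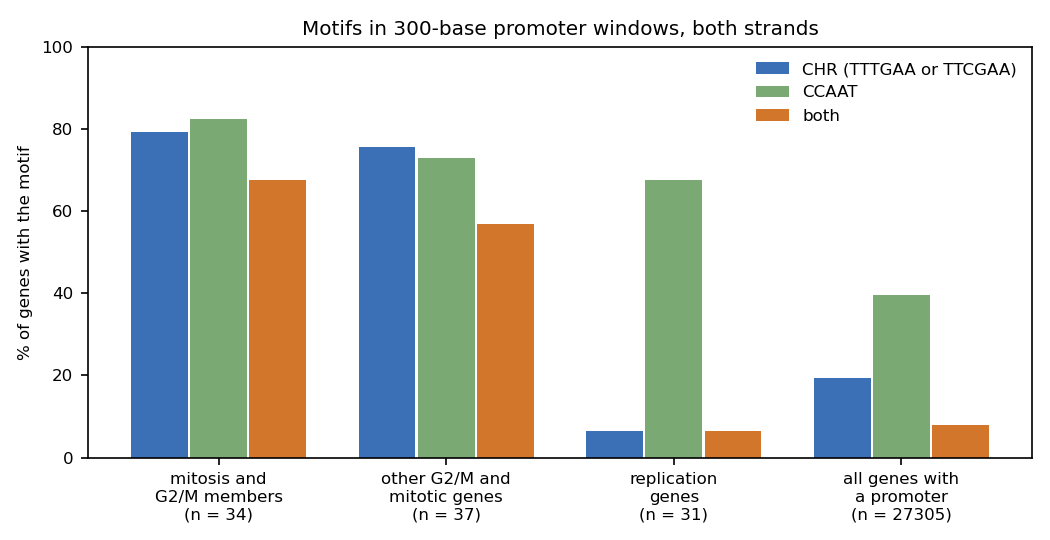
Percentage of genes (vertical axis) whose 300-base promoter window holds CHR, CCAAT or both, for 34 mitosis and G2/M genes, 37 other mitotic genes, 31 replication genes and all 27305 genes with a window. CHR stands at 79.4% in the mitotic genes and 6.45% in the replication genes.

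The libraries held 19336073 to 32325981 counts. AF replicate 1 stood apart, with 34.84% of its counts in ribosomal RNA against 0.7425% to 0.9627% in the other 7 libraries, so levels are given as CPM, counts scaled to the library size after correction by composition factors (TMM). The labels do not state that each library came from its own culture, and library names share stems in pairs. The p-values therefore describe the scatter among 8 libraries, which may be technical. Macrophage markers were present, with 10 of 10 above a mean of 1 CPM and summed levels of 4719 to 5535 CPM in DMSO and 4082 to 4511 in AF. The markers went both ways: LYZ was at 1338 to 1642 CPM in DMSO and 666.9 to 813.6 in AF, and ITGAM at 243.8 to 280.3 and 325.7 to 373.6. Foam cell markers (6 of 6 above 1 CPM) summed to 2027 to 2192 CPM in DMSO and 1506 to 2074 in AF, and the part of these shifts in the results below was not tested. Of the T cell, epithelial, fibroblast and erythroid markers, 0 of 20 were above 1 CPM, with EPCAM and HBB at 0 counts in all libraries. Of the B cell and endothelial markers 1 of 5 each was above it, PAX5 and VWF.

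Mitotic transcripts were plainly present in vehicle-treated foam cells. Of the 40 genes, 39 passed the filter on low counts, at mean levels of 8.46 to 311 CPM. Per kilobase of exon, CDC20, which activates the anaphase promoting complex, had the highest level in DMSO (158.7 CPM per kb, percentile 98.3 of 14621 tested genes with a length), followed by the cyclin-dependent kinase subunit CKS2 (48.3, percentile 94.8) and the DNA topoisomerase TOP2A (47.2, percentile 94.6). PRC1, which bundles midzone microtubules, was lowest (1.72 CPM per kb, percentile 32), but 57.6% of its exon bases overlap another gene on the same strand in GENCODE 29, and such reads may go uncounted. The gene that did not pass was NUSAP1, a spindle protein, with 0 to 6 counts per library. Of its exon bases 62.2% overlap another gene on the same strand, and its level is not interpreted. Pseudogenes may share reads with CDC20 (64717 counts over the 8 libraries, against 3042 for CDC20P1), AURKA, MAD2L1 and UBE2C.

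With auranofin most mitotic transcripts stayed near their level in vehicle. Of the 39 genes tested, 1 rose (CCNB1) and 2 fell (MKI67 and CENPF), while 15.4% of all 17535 tested genes were called, 7.62% higher and 7.81% lower (edgeR's quasi-likelihood test, Benjamini-Hochberg adjusted p under 0.05). The median log2 fold change of the 39 was -0.003 (SE of a single gene, median 0.09) and that of all tested genes 0.005, with 18 of the 39 above and 21 below 0. The 95% confidence interval lay within a 1.5-fold change in either direction for 39 of 39 genes. Over all tested genes 11112 had such an interval, and among the 9553 tested genes within the same range of mean CPM 8649 did, with 1881 called. A call that misses the threshold does not show that a gene did not change, and under TMM scaling the lowest bound was -0.48, for MKI67, and the highest 0.39, for the checkpoint kinase gene TTK. Scaled by library totals alone, 0 of the 39 genes were called and their median was -0.155, beside a shift of -0.15 in the median of all genes, and the estimate for MKI67 was -0.482, past its lower bound under TMM. Library totals include the ribosomal RNA of AF replicate 1, whose TMM factor was 0.6793, against 1.045 to 1.078 in the other libraries. The part of that RNA in the shift was not tested. With ribosomal RNA left out under TMM, CCNB1 was called higher and MKI67 and CENPF lower. Without AF replicate 1 the calls were CCNB1 higher and MKI67 lower. Over all genes 1616, 1648 and 1660 were called when DMSO replicate 2, DMSO replicate 3 or AF replicate 3, respectively, was left out.

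**Figure D2:**
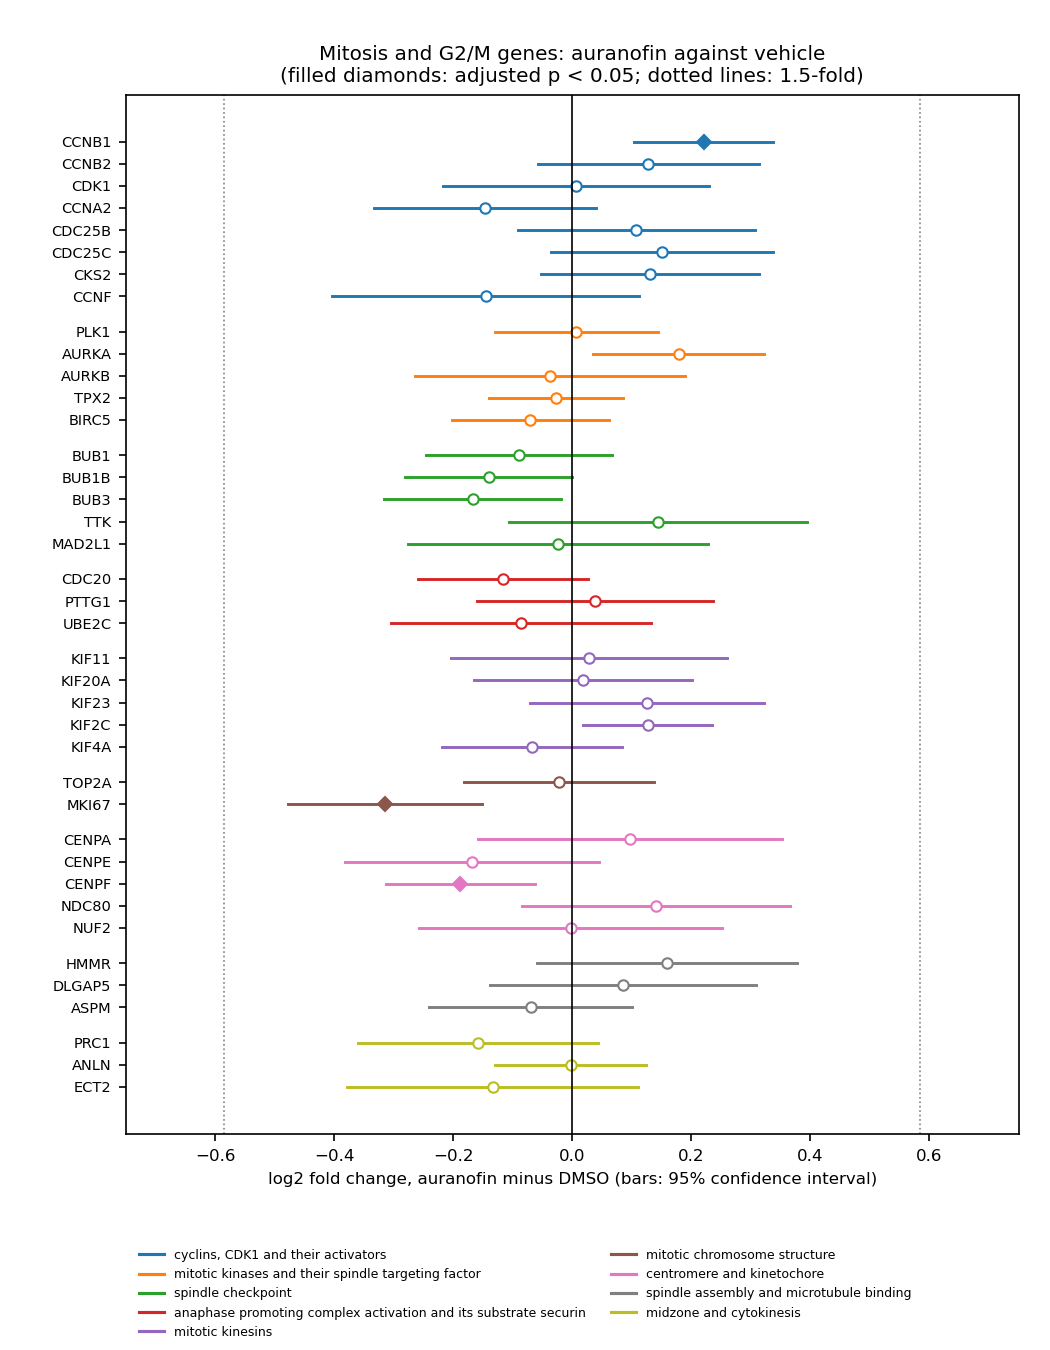
Log2 fold change with auranofin (horizontal axis, points) and its 95% confidence interval (bars) for the 39 mitosis and G2/M genes tested, coloured by role. Filled diamonds mark CCNB1, MKI67 and CENPF, with adjusted p under 0.05, and every bar stays inside the dotted lines at a 1.5-fold change.

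Among cyclins, CDK1 and their activators, 1 of 8 rose, beside 7.62% of all tested genes. With so few genes per role, the counts in this and the next role groups do not tell a group from all genes. CCNB1, the mitotic cyclin B1, stood at 64.3, 60.8, 62.7 and 62.3 CPM in DMSO replicates 1 to 4 and at 69.5, 72.6, 71.0 and 78.3 CPM in AF. The 4 AF values lie above the 4 DMSO values, as for 9.86% of all tested genes. Its log2 fold change was 0.22 ± 0.05 (SE; adjusted p = 0.0137, edgeR), with an adjusted p of 0.0523 once DMSO replicate 2 was left out. With library totals alone the value was 0.08. CCNB1 (ENSG00000134057.14) spans chromosome 5 from 69167010 to 69178245 on GRCh38, and its counts are summed over the exons of the whole gene.

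The other cyclins, CDK1 and the CDK1 activators were not called. CDK1, the kinase of cyclin B1, stood at 24.1, 21.5, 25.5 and 28.6 CPM in DMSO and 24.3, 23.6, 24.2 and 27.9 in AF. Its log2 fold change was 0.01 ± 0.10 (95% interval -0.22 to 0.23). CCNB2, the second B cyclin, stood at 32.6, 28.7, 31.2 and 32.5 CPM in DMSO and 33.9, 31.9, 33.3 and 37.55 in AF (0.13 ± 0.09, adjusted p = 0.352, and -0.02 with library totals alone). CCNA2, the cyclin of S phase and G2, had 41.9, 39.6, 43.8 and 42.1 CPM in DMSO and 35.9, 32.85, 38.7 and 43.8 in AF (-0.15 ± 0.09, adjusted p = 0.283), and here AF replicate 4 lies at the DMSO level and the other 3 AF libraries below the lowest DMSO library. CDC25C, a phosphatase that activates CDK1, had 10.3, 10.8, 9.535 and 10.8 CPM in DMSO and 10.99, 11.4, 10.9 and 12.7 in AF. Its groups did not overlap, but it was not called (0.15 ± 0.09, adjusted p = 0.268). The related phosphatase CDC25B (0.11 ± 0.09), the kinase subunit CKS2 (0.13 ± 0.09) and cyclin F, CCNF (-0.15 ± 0.12), were not called either.

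Of the mitotic kinases, 0 of 5 genes in the group were called, beside 15.4% of all tested genes. PLK1, the Polo-like kinase of mitotic entry, had 63.8, 58.8, 57.2 and 56.5 CPM in DMSO and 64.5, 61.1, 56.5 and 55.5 in AF (log2 fold change 0.01 ± 0.06, interval -0.13 to 0.14). The ranges of the 2 groups are nearly the same. AURKA, the centrosome and spindle kinase, had 55.9, 51.5, 52.7 and 55.7 CPM in DMSO and 56.9, 58.35, 59.9 and 69.1 in AF. Each AF value lay above the DMSO values, AF replicate 4 most, and the gene missed the threshold (0.18 ± 0.07, adjusted p = 0.0877, edgeR). AURKB, the kinase of the chromosomal passenger complex, had 8.31, 8.73, 8.77 and 8.455 CPM in DMSO and 8.92, 9.58, 7.48 and 7.41 in AF (-0.04 ± 0.11), so that the AF libraries spread around the DMSO values. BIRC5 (survivin), of the same complex, had -0.07 ± 0.06, and TPX2, which activates Aurora A on the spindle, -0.03 ± 0.05.

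The spindle checkpoint genes were not called either, 0 of 5, beside 15.4% of all tested genes. BUB1B, which encodes the checkpoint protein BubR1, had 43.9, 44.0, 45.4 and 48.0 CPM in DMSO and 39.6, 40.8, 40.3 and 43.7 in AF (log2 fold change -0.14 ± 0.07, adjusted p = 0.167). The AF values lie just below the DMSO values, as for 9.68% of all tested genes. BUB3, its binding partner, had 44.5, 44.5, 48.9 and 48.9 CPM in DMSO and 39.9, 40.5, 40.3 and 45.5 in AF (-0.17 ± 0.07, adjusted p = 0.120). AF replicate 4 alone overlaps the DMSO range. MAD2L1 (MAD2), the inhibitor of CDC20, had 28.8, 28.4, 32.2 and 35.7 CPM in DMSO and 26.9, 26.5, 32.7 and 36.8 in AF (-0.02 ± 0.12), with replicates 3 and 4 above replicates 1 and 2 in both groups. The kinase genes BUB1 and TTK had -0.09 ± 0.07 and 0.14 ± 0.12.

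CDC20, the target of that checkpoint, had 344.8, 330.3, 300.3 and 318.8 CPM in DMSO and 315.7, 312.6, 283.8 and 281.4 in AF (-0.12 ± 0.07, adjusted p = 0.262). The groups overlap. UBE2C, the ubiquitin-conjugating enzyme of the anaphase promoting complex, had -0.09 ± 0.10, and PTTG1, its substrate securin, 0.04 ± 0.09.

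Of 5 mitotic kinesins 0 were called, again beside 15.4% of all tested genes. KIF2C, a microtubule depolymerase at centromeres, had 82.4, 85.0, 84.5 and 83.6 CPM in DMSO and 96.8, 88.4, 89.25 and 91.8 in AF. The 4 AF values lie above the DMSO values by a small step (0.13 ± 0.05, adjusted p = 0.109, and -0.03 with library totals alone). The bipolar spindle motor KIF11 had 0.03 ± 0.11, KIF20A and KIF23, motors of the midzone, 0.02 ± 0.09 and 0.13 ± 0.09, and the chromokinesin KIF4A -0.07 ± 0.07.

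The pair of genes of mitotic chromosome structure differed from each other. MKI67, whose protein Ki-67 coats mitotic chromosomes and marks cycling cells, had 119.3, 131.3, 138.0 and 113.7 CPM in DMSO and 115.6, 98.4, 98.4 and 91.8 in AF. Its log2 fold change was -0.31 ± 0.08 (adjusted p = 0.012, edgeR), the largest fall among the 39 genes. AF replicate 1, the library rich in ribosomal RNA, lies above DMSO replicate 4, and the other 3 AF libraries lie below the DMSO range. The call held with each of the 8 libraries left out in turn. TOP2A, the topoisomerase that untangles sister chromatids, had 305.0, 285.5, 293.8 and 330.1 CPM in DMSO and 277.4, 274.9, 310.2 and 333.4 in AF (-0.02 ± 0.07, interval -0.18 to 0.14). As a ratio of counts within each library, which no scaling alters, MKI67 to TOP2A was 0.391, 0.460, 0.470 and 0.345 in DMSO and 0.417, 0.358, 0.317 and 0.275 in AF, and the groups overlap. This ratio was not among the planned results and was not tested. MKI67 (ENSG00000148773.13) spans chromosome 10 from 128096659 to 128126385 on GRCh38.

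At the centromere and kinetochore, 1 of 5 genes fell, beside 7.81% of all tested genes. CENPF, a large kinetochore protein that accumulates in G2, had 166.5, 157.2, 164.7 and 182.4 CPM in DMSO and 151.9, 138.0, 144.4 and 154.6 in AF. The AF values lie below the DMSO values, by little (-0.19 ± 0.06, adjusted p = 0.0417, edgeR). The call rests on single libraries: the adjusted p was 0.0767, 0.0698 and 0.093 with DMSO replicate 1, 3 or 4 left out, and 0.054, 0.118 and 0.121 with AF replicate 1, 2 or 3 left out. The kinetochore motor CENPE had 44.8, 36.1, 38.5 and 48.6 CPM in DMSO and 36.2, 33.1, 39 and 41.2 in AF (-0.17 ± 0.10, adjusted p = 0.280), with wide overlap. The centromeric histone gene CENPA had 0.10 ± 0.12, and NDC80 and NUF2, which form the microtubule-binding complex together, 0.14 ± 0.11 and -0.003 ± 0.12. CENPF (ENSG00000117724.12) spans chromosome 1 from 214603195 to 214664588 on GRCh38.

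The remaining genes were not called. Of the spindle proteins, HMMR had 0.16 ± 0.10, DLGAP5 0.09 ± 0.11 and ASPM -0.07 ± 0.08. Of the cytokinesis genes, the scaffold protein gene ANLN had -0.003 ± 0.06, the RhoA activator ECT2 -0.13 ± 0.11 and PRC1 -0.16 ± 0.09. Each of these intervals includes 0.

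**Figure D3:**
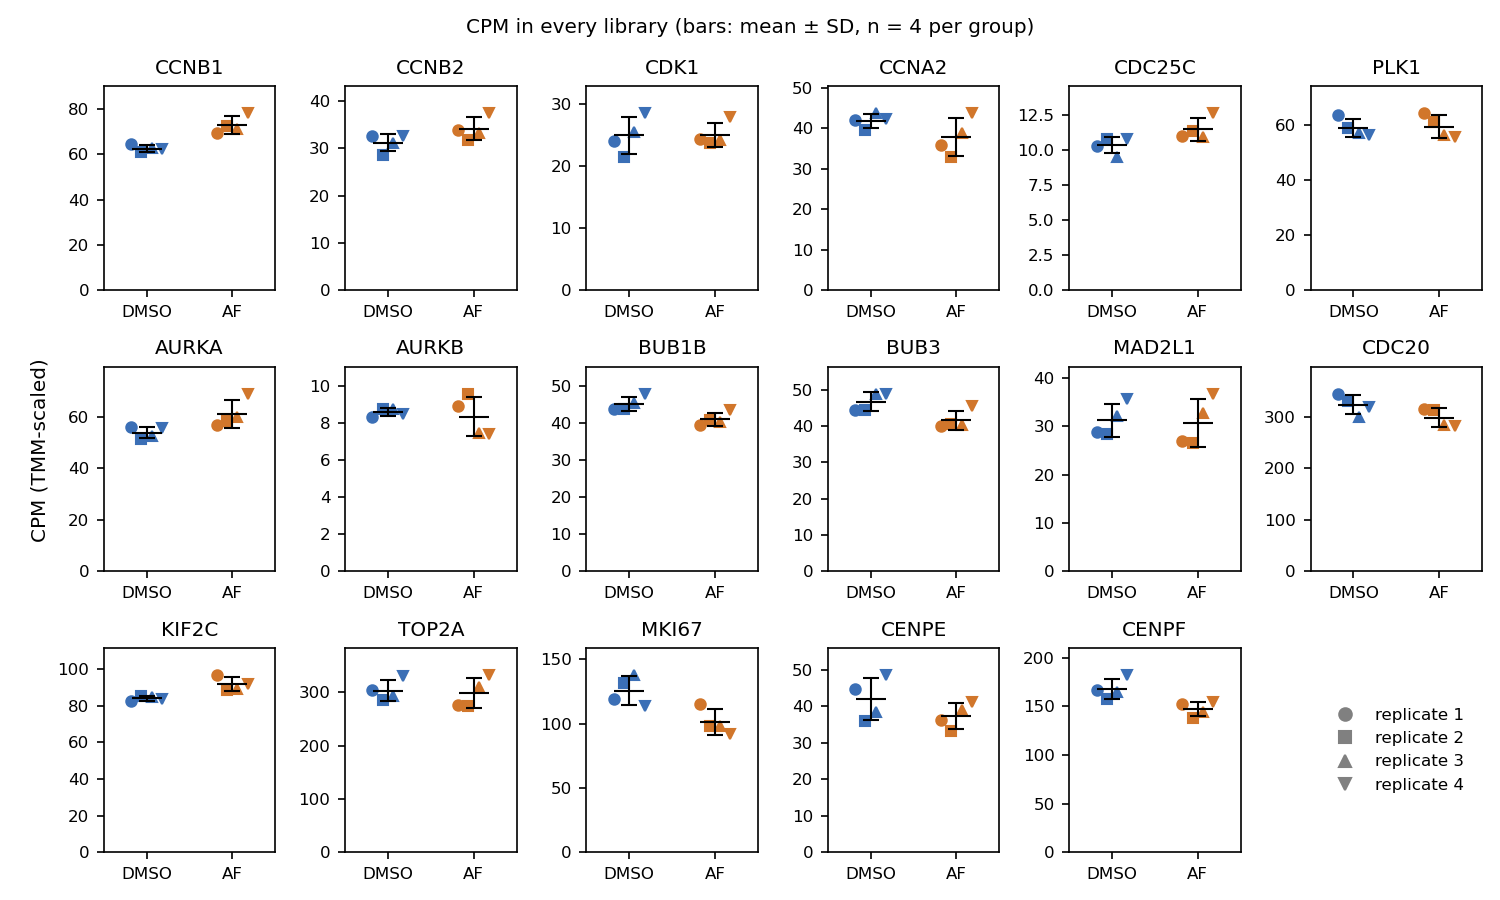
CPM (vertical axis, from 0) in every library for 17 named genes, with DMSO in blue, AF in orange, a marker shape per replicate and black bars for the mean ± SD (n = 4). The AF values of CCNB1 lie above and those of CENPF below the DMSO values, while PLK1, CDK1 and TOP2A overlap.

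The libraries of a group differed in these genes. AF replicate 4 held the highest value of the 8 libraries for 14 of the 39 genes, DMSO replicate 4 for 8 and AF replicate 3 for 0. In AF replicate 4, 29 of 39 genes lay above the mean of the other AF libraries, and in DMSO replicate 4, 28 of 39 lay above that of the other DMSO libraries. The mean log2 level of the 39 genes against the DMSO mean was 0.003, -0.05, -0.01 and 0.05 in the DMSO libraries and -0.04, -0.06, -0.02 and 0.08 in the AF libraries. The median SD within a group on the log2 scale was 0.08 in DMSO and 0.11 in AF.

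Genes of DNA replication, which precedes mitosis, give a comparison within the same libraries. Of 35 replication genes 26 fell and 0 rose, with a median log2 fold change of -0.42 (17 fell without DMSO replicate 2). In the mitotic genes 2 of 39 fell and the median was -0.003, and of all tested genes 7.81% fell. UHRF1, which recruits DNA methylation maintenance to new DNA, fell from 46.8 ± 4.78 to 24.4 ± 1.58 CPM (SD, n = 4; log2 fold change -0.94 ± 0.09). MCM3, a subunit of the replicative helicase, fell from 152 ± 12.4 to 102.8 ± 5.795 CPM. The ratio of TOP2A to MCM3 counts was 2.105, 1.73, 1.84 and 2.385 in the DMSO libraries and 2.53, 2.69, 3.24 and 3.21 in the AF libraries, without overlap. The ratio was picked after the values of both genes were seen and was not tested, and the difference between the lists was not tested.

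**Figure D4:**
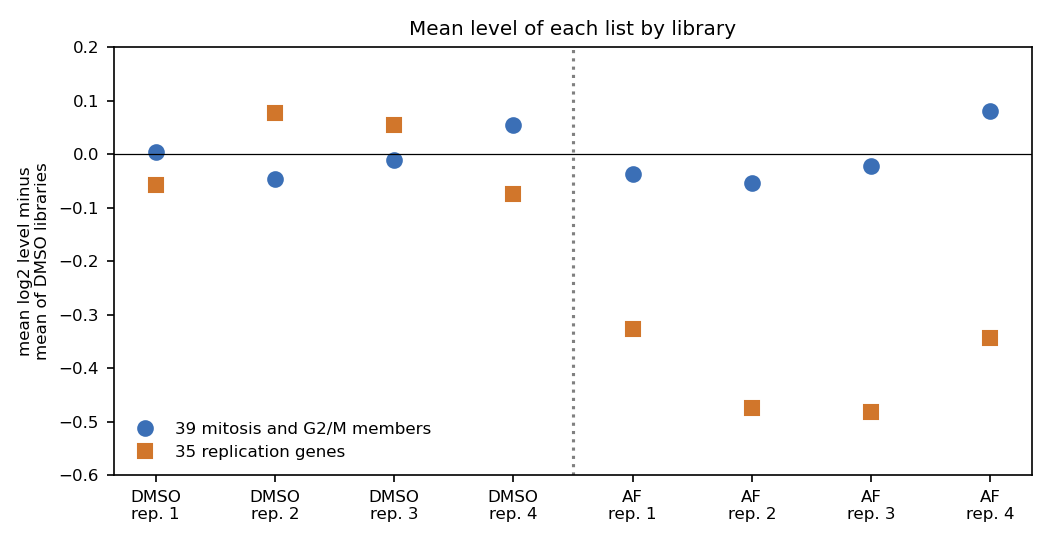
Mean log2 level in each library minus the mean of the DMSO libraries (vertical axis) for 39 mitosis and G2/M genes (circles) and 35 replication genes (squares). The circles stay between -0.06 and 0.08, and the squares of the 4 AF libraries lie between -0.48 and -0.33.

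Among regulators of the mitotic promoters, MYBL2 and FOXM1 fell. Of 14 genes of FOXM1, B-MYB, MuvB and their E2F and pocket protein partners 4 fell and 0 rose, with a median log2 fold change of -0.16, beside 7.81% of all tested genes that fell (1 fell with library totals alone, 2 without AF replicate 3 and 7 without AF replicate 4). MYBL2 had 85.8, 97.15, 88.0 and 75.6 CPM in DMSO and 63.4, 56.6, 54.6 and 54.1 in AF, a log2 fold change of -0.60 ± 0.08 (adjusted p = 0.000115, edgeR). FOXM1, the forkhead factor of G2, had 44.3, 39.65, 38.65 and 42.3 CPM in DMSO and 33.4, 32.6, 32.3 and 28.7 in AF (-0.38 ± 0.08, adjusted p = 0.00614, and 0.0547 with library totals alone). Neither gene's groups overlap. TFDP1, the E2F dimer partner, fell by 0.21 ± 0.05 (adjusted p = 0.0705 without AF replicate 3). The ratio of PLK1 to MYBL2 counts, also picked after both were seen, was 0.744, 0.605, 0.650 and 0.748 in DMSO and 1.02, 1.08, 1.04 and 1.03 in AF.

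The list of G1 cyclins, kinases, E2F factors and CDK inhibitors held changes of both signs. Of 16 genes tested 6 fell and 1 rose, with a median of -0.07 (4 fell and 0 rose with library totals alone). Of all tested genes 7.81% fell and 7.62% rose. CCNE1, the cyclin E of S phase entry, fell from 8.05 ± 1.54 to 4.94 ± 0.898 CPM and the transcription factor gene E2F2 from 14.3 ± 1.12 to 9.51 ± 1.18 CPM. CDKN1B, which encodes the inhibitor p27, rose from 21.6 ± 3.64 to 32.35 ± 0.522 CPM (log2 fold change 0.58 ± 0.11, adjusted p = 0.00313, edgeR, and 0.43 with an adjusted p of 0.212 with library totals alone). CDKN1A, which encodes p21, had 172.3, 155.6, 151.0 and 155.2 CPM in DMSO and 176.5, 154.4, 140.3 and 150.1 in AF (-0.03 ± 0.07) and was not called. The counts of CCNB1 were 8.905, 6.94, 6.37 and 9.74 times those of CCNE1 in the DMSO libraries and 12.5, 18.4, 16.05 and 13.5 times in the AF libraries, again a ratio picked after the values were seen.

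Further mitotic genes outside the 40 were counted in the same way. Of 46 other G2/M genes 4 fell and 0 rose in the main edgeR fit, a share near the 7.81% of all tested genes that fell. Their median log2 fold change was -0.11, and 31 of the 46 lay below 0, against 8623 of all 17535 tested genes. An unadjusted edgeR p under 0.05 was found for 17, against 5216 of all tested genes. In 7 the AF values all lay below the DMSO values, as for 9.68% of all tested genes. The number called was 0 with library totals alone, 2 without DMSO replicates 1 or 2 and 1 without DMSO replicate 3 or AF replicate 3. It was 9 without AF replicate 4. DESeq2 called 11, all lower, beside 3096 of all 36234 genes with any count, 1554 of them lower. CDC25A, a phosphatase of S phase entry that was counted in this list, fell by 0.47 ± 0.10 (adjusted p = 0.00506, edgeR, and 0.0511 with library totals alone). The kinetochore gene SPC24 fell by 0.39 ± 0.10 (adjusted p = 0.0182, edgeR, but adjusted p = 0.0706 without DMSO replicate 3 and 0.0705 without AF replicate 3). The spindle motor gene KIFC1 fell by 0.27 ± 0.08 (adjusted p = 0.0342, edgeR). That call was lost when DMSO replicate 1, 2 or 3 or AF replicate 3 or 4 was left out (adjusted p = 0.132, 0.133, 0.0864, 0.152 and 0.062). Of 37 of these genes with a promoter window 28 held CHR (75.7%). The core of the anaphase promoting complex had 0 of 17 genes called in edgeR, beside 15.4% of all tested genes, and a median of -0.07. DESeq2 called 1. An unadjusted edgeR p under 0.05 was found for 4 of the 17, beside 5216 of all 17535 tested genes. ANAPC15 stood just past the threshold in the main fit (log2 fold change -0.42 ± 0.14, adjusted p = 0.05005, edgeR). The number called in edgeR was 2 without DMSO replicate 1 or with upper quartile factors, and 3 with a block by replicate number. It was 1 without AF replicate 1 or 4, with RLE composition factors, without a filter or with a filter of 1 CPM. With name stems summed or ribosomal RNA left out it was also 1.

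Of 17 condensin and cohesin genes, which shape and hold mitotic chromosomes, 3 fell and the median was -0.09, beside 7.81% of all tested genes that fell (0 fell with library totals alone, 1 without DMSO replicate 2 or 3 or AF replicate 3, and 5 without AF replicate 4). The cohesin gene SMC1A fell by 0.28 ± 0.05, from 165.8 ± 3.16 to 136.5 ± 3.76 CPM (adjusted p = 0.143 with library totals alone), and the condensin genes SMC2 and NCAPD3 by 0.31 ± 0.09 and 0.16 ± 0.05. Leaving out DMSO replicate 2, 3 or 4 or AF replicate 1, 2 or 3 ended the call of SMC2 (adjusted p = 0.0516 to 0.0777), and leaving out DMSO replicate 1, 2 or 3 or AF replicate 1, 2 or 3 that of NCAPD3 (0.0706 to 0.153). Of 15 genes of the constitutive centromere network 4 fell, again beside 7.81% of all tested genes, and the median was -0.21. With library totals alone 2 fell, as without DMSO replicate 3 or AF replicate 3. CENPM fell by 0.66 ± 0.11, CENPX by 0.51 ± 0.13 and CENPK by 0.41 ± 0.12. The call of CENPK ended with DMSO replicate 2, 3 or 4 or AF replicate 2 or 3 left out (adjusted p = 0.0533 to 0.1).

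**Figure D5:**
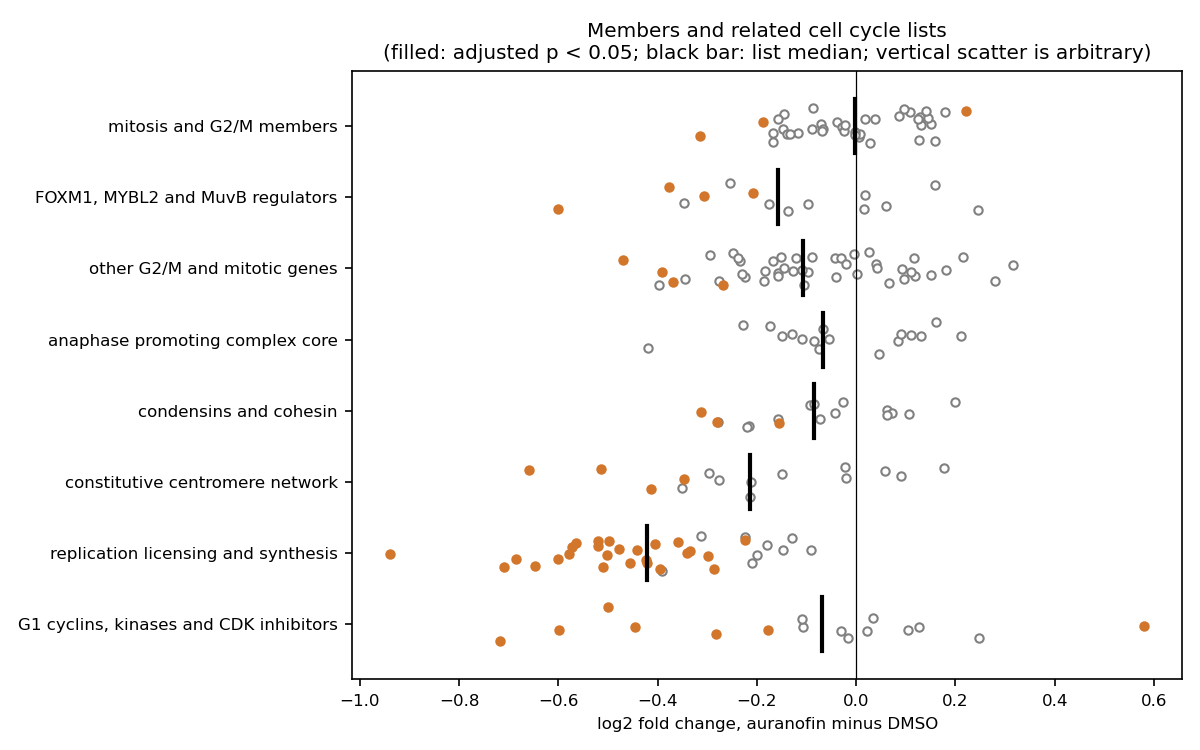
Log2 fold change with auranofin (horizontal axis) of each tested gene, for the mitosis and G2/M genes and 7 related lists (rows). Filled points have an adjusted p under 0.05 and black bars are list medians, at -0.003 for the mitotic genes and -0.42 for the replication genes.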

How the data were processed

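The authors deposited raw counts per gene for 8 libraries, made from poly-A RNA (250 ng of total RNA, strand-marked) per the labels' protocols. The submitters' processing notes list STAR 2.6.1d, featureCounts, Subread 1.6.3 and GRCh38. Which gene models and strand option were used, and how overlapping or multi-mapped reads were counted, was not given in the sources used. Genes that passed edgeR's filterByExpr (17535) were scaled with TMM factors and tested by the quasi-likelihood functions glmQLFit and glmQLFTest of edgeR 4.0.16 under R 4.3.3, with 6 residual degrees of freedom. P-values are two-sided and were adjusted by Benjamini-Hochberg across those genes. Standard errors were computed as the absolute log2 fold change over the root of F. Library means used log2(CPM + 0.5). Exon lengths and overlaps came from GENCODE 29, which may differ from the authors' annotation. The method was tested on simulated data, drawn as independent libraries from the dispersions of the same fit. That cannot speak to shared name stems, pairing by replicate number or the ribosomal RNA of AF replicate 1. Members, lists, rules and tests were chosen with earlier results of these data known. Values in every library are given for the 10 members with the smallest p and for 12 fixed ones. From each related list up to 3 called genes with the smallest p are named, plus FOXM1, MYBL2 and CDKN1A; 1 gene that this rule names is not reported here. Alternatives were DESeq2 1.42.0, other scalings and filters, blocks, summed name stems and each library left out. Counts are not independent molecules, since no molecular identifiers are described.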

Additional observations from a re-analysis of the deposited data

Results flagged for a closer look

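Among the 34 groups of 4 values given by library for 17 genes, 2 held a value far from the other 3, where chance gives about 1 in 20. BUB3 stood at 45.5 CPM in AF replicate 4, with the nearest AF library at 40.5. CDK1 stood at 27.9 CPM in the same library, with the nearest at 24.3. DMSO replicate 4 had 28.6 CPM of CDK1 and 48.9 CPM of BUB3.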

How the results depend on the processing

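With library totals alone (log2 shift of the all-gene median, -0.15) 0 of the 40 genes were called, 883 of all genes (183 higher and 700 lower, against 1336 and 1369) and 26 of the related lists' genes in place of 48, the median of the mitotic genes was -0.155, and MKI67 was at -0.482 but not called. Of the named genes called in the related lists, FOXM1, TFDP1, CDC25A, SPC24, KIFC1, SMC1A, SMC2, NCAPD3, CENPK and CDKN1B kept their direction there but were not called (adjusted p = 0.0511 to 0.383). The replicate block gave 5 mitotic genes (2 higher, CCNB1 and AURKA, and 3 lower, MKI67, CENPF and BUB3), 4188 of all genes (2102 higher and 2086 lower) and 76 of the related lists' genes. Same-numbered libraries had correlations of deviations of 0.2001, 0.346, 0.0176 and 0.472 across genes of at least 5 CPM. Libraries of different numbers had -0.324 to 0.0929. Replicates 1, 2 and 4 correlated best with their own number, and replicate 3 did not. The numbers were not taken as pairs in the main fit, and whether they mark pairs was not tested. DESeq2, other composition factors, other filters, a block by the last digit of the library name, summed name stems and leaving out ribosomal RNA gave 2 or 3 mitotic genes and 26 to 28 replication genes, with CENPF not called without a filter, under the name block or with stems summed. The count of other G2/M genes was 4, and 0 with library totals alone, 15 with the block, 11 by DESeq2, 7 without a filter and 8 with a filter of 1 CPM. With the block 8 genes of the FOXM1 and MuvB list and 8 of condensins and cohesin were called. Leaving out single libraries gave 2 to 3 mitotic genes, 1616 to 2964 of all genes, 30 to 63 of the related lists' genes and 17 to 30 replication genes.

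Among the named genes, signs turned for genes that were not called. With library totals alone CDK1 was at -0.142, PLK1 at -0.154, KIF2C at -0.0309 and CCNB2 at -0.0219. With upper quartile factors CDK1 was at -0.0087 and PLK1 at -0.00746, and with stems summed CDK1 at -0.00102. Without single libraries CDK1 ranged from -0.0586 to 0.0774 (also -0.0494 and -0.00974), PLK1 from -0.0376 to 0.0471 (also -0.0135, -0.00955 and -0.00688), AURKB from -0.116 to 0.0154 (also 0.0144), MAD2L1 from -0.12 to 0.0454 (also 0.0433 and 0.0288), TOP2A from -0.0779 to 0.0203 (also 0.0171 and 0.00789) and CDKN1A from -0.101 to 0.0164 (also 0.0125).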
